A study of Mus musculus with 8 samples.

Results

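Binding of PRDM16 to DNA was mapped in the cerebral cortex of mouse embryos, and 2534 places in the space between protein-coding genes are described here. Each was called as a peak in both wild-type (WT) libraries, overlapped no peak of either conditional knockout (cKO) library, and had its summit, the position of highest read coverage, outside every protein-coding gene body and more than 1 kb but at most 100 kb from the nearest one. Of 10090 regions shared by both WT lists, 9232 (91.5%) met the first condition of lying in no cKO list, and the 2534 intergenic regions were 27.4% of those (95% Wilson interval 26.5% to 28.4%). Of the other 6698, 518 had summits within 1 kb of a gene end, inside or outside the gene. Another 4279 lay in gene bodies farther than that from any end, and 1901 lay more than 100 kb from any gene. The regions were chosen by the peak calls of all 4 libraries, so presence in WT and absence in cKO is the rule and not a result. Intervals on shares and densities cover counting error only.

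The cortex was taken at stage E15.5 and lysed whole, chromatin was fixed with paraformaldehyde and EGS and sonicated, and antibody-bound fragments were sequenced (chromatin immunoprecipitation and sequencing, ChIP-seq). Embryos labelled WT had the genotype Prdm16 flox/flox, and embryos labelled cKO had the genotype Emx1Ires-Cre; Prdm16flox/flox, so both groups carried the floxed alleles and differed in Cre. Cre from the Emx1 locus is active in the excitatory lineage of the dorsal telencephalon, so interneurons, vessels and microglia of the same lysate keep an unrecombined Prdm16. Each genotype had 2 ChIP libraries, and the labels do not say whether these came from separate embryos, so any p-value measures only the spread between libraries.

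PRDM16 is a zinc-finger protein of the PR-domain family that acts on transcription, and in the embryonic cortex it is made in radial glia, the stem cells that line the ventricle. Radial glia divide to give intermediate progenitors, which in turn give the excitatory neurons of the cortical layers. Enhancers, the DNA elements that set where and when a gene is transcribed, often lie between genes, and they can act over long distances and past a nearer gene. The gene named beside a region below is the nearest protein-coding gene by position, and no measurement here ties the region to it.

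"Intergenic" refers to protein-coding genes only. The summits of 578 regions (22.8%) lay inside the body of an annotated long noncoding RNA (lncRNA). The share of the available sequence inside lncRNA bodies was not counted, so no excess or lack is read from the 22.8%. The summits of 47 regions (1.85%, interval 1.40% to 2.46%) lay in the window from 250 bases before to 50 bases after a lncRNA start. Those windows cover 0.172% of the genome that lies outside coding genes at 1 to 100 kb, and 48 of 5221 of them (0.919%) held a summit. In the same space, 9 regions shared by both cKO lists (2.08%) had a summit in a window. So did 3 (1.14%) of the regions of both WT lists that overlapped a cKO peak. A place at a lncRNA start is thus not particular to the WT-only regions. The sequences of such windows are printed because they show the DNA under the peaks. The first 6 are the most enriched ones, and C130071C03Rik was added after its value was seen because it lies beside the microRNA gene Mir9-2. Each line gives the RefSeq sequence (GRCm38.p6, the mm10 build) of the 300-base window on the strand of the lncRNA, 5′ to 3′, and the 21 capitals are centred on the summit:
Gm33200: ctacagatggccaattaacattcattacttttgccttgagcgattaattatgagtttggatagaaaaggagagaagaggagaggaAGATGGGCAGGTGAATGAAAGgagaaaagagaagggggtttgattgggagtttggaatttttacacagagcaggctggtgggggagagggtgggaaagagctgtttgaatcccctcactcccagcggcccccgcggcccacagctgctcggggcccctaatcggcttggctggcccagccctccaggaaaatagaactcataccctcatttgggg
4930407I02Rik: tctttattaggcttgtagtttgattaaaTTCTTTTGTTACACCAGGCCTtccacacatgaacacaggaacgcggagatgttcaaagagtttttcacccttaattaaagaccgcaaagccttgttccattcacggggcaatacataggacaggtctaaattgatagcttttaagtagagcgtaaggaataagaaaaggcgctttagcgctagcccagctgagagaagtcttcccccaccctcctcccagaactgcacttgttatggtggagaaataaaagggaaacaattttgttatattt
2900052N01Rik: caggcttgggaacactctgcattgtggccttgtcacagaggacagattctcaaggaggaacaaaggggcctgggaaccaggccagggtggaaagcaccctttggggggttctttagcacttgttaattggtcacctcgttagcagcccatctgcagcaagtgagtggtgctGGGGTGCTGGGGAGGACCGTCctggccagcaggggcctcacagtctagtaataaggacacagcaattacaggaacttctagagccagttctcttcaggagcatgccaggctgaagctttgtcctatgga
Gm42808: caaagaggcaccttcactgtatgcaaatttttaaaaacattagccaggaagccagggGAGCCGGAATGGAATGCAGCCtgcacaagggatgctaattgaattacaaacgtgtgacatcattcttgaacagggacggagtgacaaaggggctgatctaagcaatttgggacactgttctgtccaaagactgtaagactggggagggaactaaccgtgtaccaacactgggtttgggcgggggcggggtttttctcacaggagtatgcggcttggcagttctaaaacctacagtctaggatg
Gm30252: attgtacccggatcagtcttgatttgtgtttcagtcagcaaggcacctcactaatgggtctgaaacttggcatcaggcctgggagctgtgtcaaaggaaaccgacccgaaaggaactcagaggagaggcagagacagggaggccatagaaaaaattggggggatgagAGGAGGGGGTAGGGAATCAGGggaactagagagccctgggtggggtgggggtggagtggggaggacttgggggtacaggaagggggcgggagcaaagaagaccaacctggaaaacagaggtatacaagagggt
Gm32002: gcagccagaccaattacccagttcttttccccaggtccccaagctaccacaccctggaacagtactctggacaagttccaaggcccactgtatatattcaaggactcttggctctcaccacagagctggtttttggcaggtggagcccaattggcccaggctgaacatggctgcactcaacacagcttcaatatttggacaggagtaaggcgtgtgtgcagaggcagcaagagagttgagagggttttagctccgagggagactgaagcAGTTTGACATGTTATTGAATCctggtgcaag
C130071C03Rik: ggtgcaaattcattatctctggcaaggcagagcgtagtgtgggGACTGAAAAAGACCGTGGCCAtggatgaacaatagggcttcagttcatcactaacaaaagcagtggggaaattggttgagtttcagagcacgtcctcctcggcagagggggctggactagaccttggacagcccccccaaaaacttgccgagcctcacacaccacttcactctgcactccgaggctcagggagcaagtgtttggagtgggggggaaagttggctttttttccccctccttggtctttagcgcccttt

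The region at the start of Gm33200 had its summit 22251 bp on the 5′ side of Emx1, the homeobox gene of the dorsal telencephalon whose locus also carries the Cre of the cKO line. The window is chr6:85165585-85165884 on the plus strand, and the region had a fold of 22.2 in WT replicate 1 and 13.9 in WT replicate 2. The window of 4930407I02Rik is chr6:143260578-143260877 on the minus strand, and its summit was 52293 bp from Etnk1, with folds of 13.1 and 22.5. These were the strongest of the 47, and WT replicate 1 was the higher library at the former and the lower one at the latter.

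The window of 2900052N01Rik (chr9:46913353-46913652, plus) held a summit 85207 bp from Gm4791, with folds of 13.5 and 16.8. The window of Gm42808 (chr5:140549659-140549958, minus) held a summit 13226 bp from Grifin, with folds of 11.2 and 17.1. The window of Gm30252 (chr16:44615979-44616278, plus) held a summit 57286 bp from Boc, which encodes a co-receptor for Sonic hedgehog, with folds of 10.5 and 13.7. At these places the folds in the second WT library were the higher ones.

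The window of Gm32002 (chr5:74161322-74161621, plus) held a summit 33725 bp from Rasl11b, with folds of 6.75 and 16.6. The window of C130071C03Rik (chr13:83732243-83732542, plus), at 1 of its annotated starts inside the gene body, held a summit 65217 bp from Mef2c, with folds of 9.24 and 13.4. Further down the same set were the starts of 5930403N24Rik beside Marcks (14.2 and 6.36), Gm52052 beside Nr2f1 (8.44 and 9.93), 2610307P16Rik beside Sox4 (5.90 and 6.93) and Gm46091 beside Pou3f3 (4.24 and 6.16). Nr2f1, Sox4 and Pou3f3 encode transcription factors of cortical development.

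Short motifs were counted in these 48 windows on both strands, beside all 5221 lncRNA windows of the same genome space and all 32851 start windows of the RefSeq table, each of the same length. The motif CATCTG, an E-box of the kind bound by proneural factors, was in 15 of 48 (31.3%, interval 19.9% to 45.3%), against 23.3% and 17.2%. The SOX-type motif AACAAT was in 10 (20.8%, interval 11.7% to 34.3%), against 14.96% and 10.7%. The homeodomain motif TAATTA was in 7 (14.6%, interval 7.25% to 27.2%), against 7.72% and 5.29%. With 48 windows each of those 3 intervals includes the share of all 5221. Among the 48 are overlapping windows of Gm29903 that hold the same summit and share most of their sequence. The intervals do not allow for this.

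The E-box CAGCTG was in 16.7% of the 48 windows, against 17.8% of the 5221 and 16.3% of all. The octamer ATTTGCAT was in 4.17%, against 2.15% and 1.74%. TGANTCA and CCGGAAG were each in 1 window (2.08%), against 10.7% and 3.16% of the 5221, and the full palindromic NFI motif was in none (upper limit 7.41%). No motif contains another, and a match is a string of letters and not a bound site.

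Across the series, 13852 peaks were listed for the first WT library, 26652 for the second, 4553 for the first cKO library and 3088 for the second. The files give no read totals. The genome-wide background solved from the peak statistics was 0.777 and 1.78 reads per position in the WT libraries and 2.95 and 2.52 in the cKO libraries, so background coverage was greater in the cKO libraries. At the median local background of each library's peaks, the smallest fold that could be called was 3.53 and 3.01 in WT and 3.18 and 3.29 in cKO. Library identifiers in the lists differ between the genotypes and are shared within them, so a difference between genotypes and a difference between library sets cannot be told apart. The peak lists carry no expression values, so the cell types of the lysate were not checked against markers.

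The share of a library's peaks that lay in this intergenic space does not depend on the WT-only rule, and it was higher in WT. Of the peaks of the first WT library 3761 (27.2%) lay there, and of the second 7308 (27.4%). For the first cKO library it was 1087 (23.9%), and for the second 724 (23.4%). The groups did not overlap, with a WT mean of 27.3% ± 0.190 and a cKO mean of 23.7% ± 0.303 (SD over 2 libraries, n = 2 for both), 3.63 percentage points apart. Over the 6 ways to assign the libraries, the two-sided exact permutation p was 0.33, and 2 against 2 libraries can give no smaller one. The intergenic space itself made up 31.1% of the genome between the first and last gene of each chromosome, so the share of peaks was below the share of sequence in all 4 libraries.

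Within this space 2798 regions were shared by both WT lists, and 2534 of them (90.6%) overlapped no cKO peak, which is close to the 91.5% over all locations. That share was 93.6% in gene bodies, 94.7% beyond 100 kb and 73.0% within 1 kb of a gene end. Among regions shared by both cKO lists, 433 lay in the same intergenic space. The remaining 264 regions of both WT lists overlapped a cKO peak and are called kept regions here.

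Enrichment is given as the fold deposited by the authors for the strongest peak of each library, that is, the reads at the summit plus 1 over the local background plus 1. The median fold over the 2534 regions was 6.93 in WT replicate 1 (range 2.73 to 58.5) and 8.10 in WT replicate 2 (range 1.90 to 63.6). Behind these were medians of 13 and 27 reads at the summit, with minima of 7 and 9, so the second library counted more reads at a typical region. The median of the mean fold was 7.56, beside 7.49 for the WT-only regions in gene bodies, 8.0 beyond 100 kb and 6.14 at gene ends.

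The libraries ranked the regions alike in part. Across the 2534 regions Spearman's rho between the folds was 0.606 and Pearson's r of the log2 folds was 0.690, as a description over regions that share 2 libraries and a lower limit for calling. In 2346 regions (92.6%) the folds were within 2-fold of each other, and in 1030 (40.6%) WT replicate 1 was the higher. Both folds were at least 10 in 450 regions and at least 20 in 55. The summits of both libraries were a median of 57 bp apart, and the median region was 556 bp wide.

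**Figure D1:**
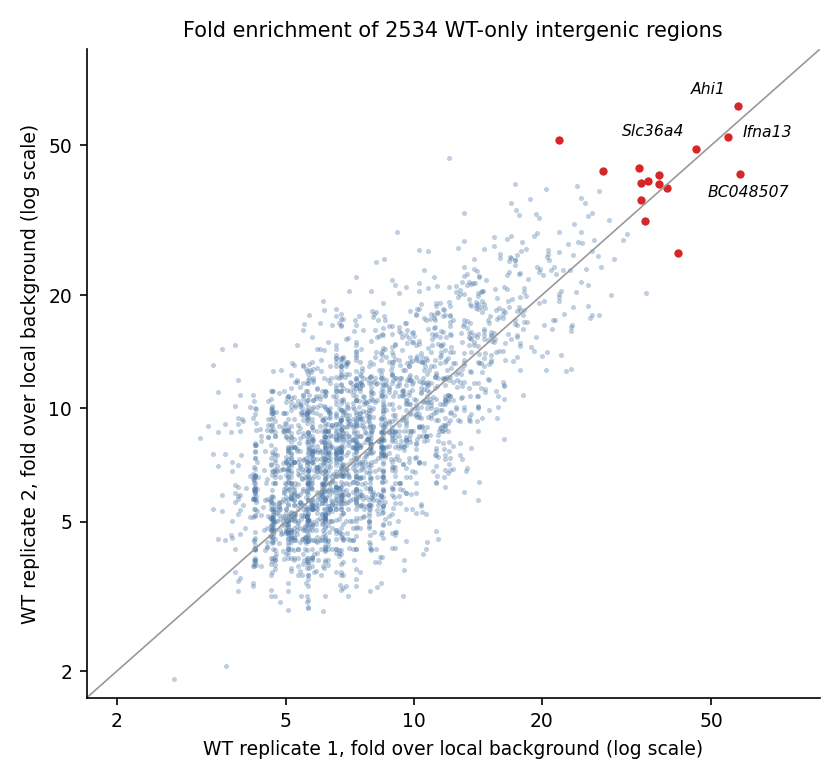
Fold over local background of each of the 2534 regions in WT replicate 1 (horizontal axis) and WT replicate 2 (vertical axis), both on log scales; the line marks equal folds. Red points are the 15 regions with the highest mean fold, of which the first 4 carry the name of the nearest gene, and they stand between 21.95 and 58.5 in replicate 1 and between 25.8 and 63.6 in replicate 2.

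The rule excluded overlap with cKO peaks, and the cKO lists were sparse. They held 4553 and 3088 peaks, while the genome between the first and last gene of each chromosome spans 2691 Mb. The median distance from a region to the nearest cKO peak was 90778 bp, and 41 regions (1.62%) had one within 1 kb. The distance from other positions to a cKO peak was not counted, so nothing is read from the median. Both WT folds were above both cKO calling limits in 2513 regions (99.2%), and in 1171 (46.2%) the lower WT fold divided by 2 was still above both. At the other 1363 a fold reduced by that factor would be at or below a limit for calling, so a missing cKO peak there does not show how far the signal changed. The regions nearest to the rule's edge were 45 bp from a cKO peak near Pxmp4 (folds 5.39 and 3.69) and 46 bp from one near Arhgef28 (9.57 and 5.94). On the other side of that edge, the regions with the smallest overlap lay near Mef2c (21 bp shared, folds 7.03 and 8.88) and Pcdh10 (27 bp shared, 9.29 and 6.95).

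The most enriched regions lay by genes of many kinds. Ahi1, a gene of the ciliary transition zone mutated in Joubert syndrome, had the strongest one, at chr10:21082101-21083903, 2174 bp past its 3′ end. The folds were 57.8 and 63.6, close to equal, with the nearest cKO peak 911322 bp away. The second lay 1862 bp from the interferon gene Ifna13 (chr4:88640995-88644859), with folds of 54.7 and 52.7, and was also the widest of all 2534 at 3865 bp. BC048507 (chr13:67864580-67865527, 1222 bp) had 58.5 and 42.0, and Slc36a4, an amino acid transporter (chr9:15774261-15775423, 32526 bp), had 46.2 and 49.0.

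Epb41l4a had folds of 37.7 and 41.6, and Cst3, which encodes the secreted protease inhibitor cystatin C, had 39.3 and 38.5 at 14622 bp on its 5′ side. Nphp4, another gene of the ciliary transition zone, followed at 62386 bp. The region by Ptn, which encodes the growth factor pleiotrophin made by radial glia, lay 69838 bp from the gene at chr6:36644609-36645683, with folds of 35.5 and 40.1. At Epb41l4a, Cst3 and Ptn the libraries gave nearly equal folds, while at 4930432M17Rik the folds were 21.95 and 51.6.

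The remaining members of the first 15 were nearest to Trmo, Dcdc5, Ccdc50, Tbc1d30, Zfp217 and Chd2. The gene on the other flank was sometimes the better known developmental gene, such as Foxe1 at 21971 bp beyond the Trmo region and the Wnt inhibitor Wif1 at 105626 bp beyond the Tbc1d30 region. For 1173 regions (46.3%) the other flanking gene was also within 100 kb, so the nearest gene is not the only candidate by position. The Zfp217 region stood apart in having a cKO peak 234 bp away.

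The least enriched members differed in kind. The lowest mean fold was at Rpusd4 (chr9:35305147-35305599), with folds of 2.73 and 1.90 from 326 and 476 reads at the summit over local backgrounds of 119 and 249.7 reads. The next lowest was at Dpy19l2 (chr9:24541937-24542258), with 3.62 and 2.07 from 167 and 185 reads over 45.4 and 88.8. The median local background over all 2534 regions was 1.02 and 2.33 reads, so Rpusd4 and Dpy19l2 lay where coverage was high with or without a peak.

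Distance from genes was a part of the rule, and is given here beside the available sequence. The median distance to the nearest gene was 27396 bp (quartiles 10815 and 54985 bp). The regions were spread over the whole range, and 316 lay at 1 to 5 kb, 708 at 5 to 20 kb, 773 at 20 to 50 kb and 737 at 50 to 100 kb. Per Mb of sequence outside genes at the same distance these were 2.76 (interval 2.47 to 3.08), 2.78 (2.58 to 2.99), 3.09 (2.88 to 3.32) and 3.31 (3.08 to 3.56).

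Kept regions lay closer to genes, with a median of 17466 bp, and regions of both cKO lists closer still, with 12825 bp. The bin at 1 to 5 kb held 12.5% of the WT-only regions, 24.2% of the kept regions and 28.6% of the regions of both cKO lists. The last bin, at 50 to 100 kb, held 29.1%, 22.3% and 15.2%. Kept regions per Mb numbered 0.560 at 1 to 5 kb and 0.265 at 50 to 100 kb, and regions of both cKO lists 1.08 and 0.297, while the WT-only density was highest in the last bin.

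Strand was known for the nearest gene of 2010 regions. Of these 1028 (51.1%, interval 49.0% to 53.3%) lay on the 5′ side and 982 on the 3′ side, and the 5′ side made up 53.6% of the sequence available. At 1 to 5 kb the 5′ side held 2.33 regions per Mb (interval 1.91 to 2.80) and the 3′ side 3.28 (2.77 to 3.87), with intervals that overlap slightly. The regions at the rule's inner bound were at Trub1 (1004 bp, folds 5.63 and 6.11) and Nog (1006 bp, 11.3 and 6.37), and those just outside it at Mvd (999 bp, 7.32 and 12.3) and Prelid3a (999 bp, 4.90 and 3.995). At the outer bound the last inside were at Itga6 (99776 bp, 6.19 and 6.48) and Id4 (99597 bp, 14.3 and 13.2), and the first outside at Stmnd1 (100429 bp, 6.798 and 16.5) and Gm38457 (100468 bp, 7.24 and 5.34).

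**Figure D2:**
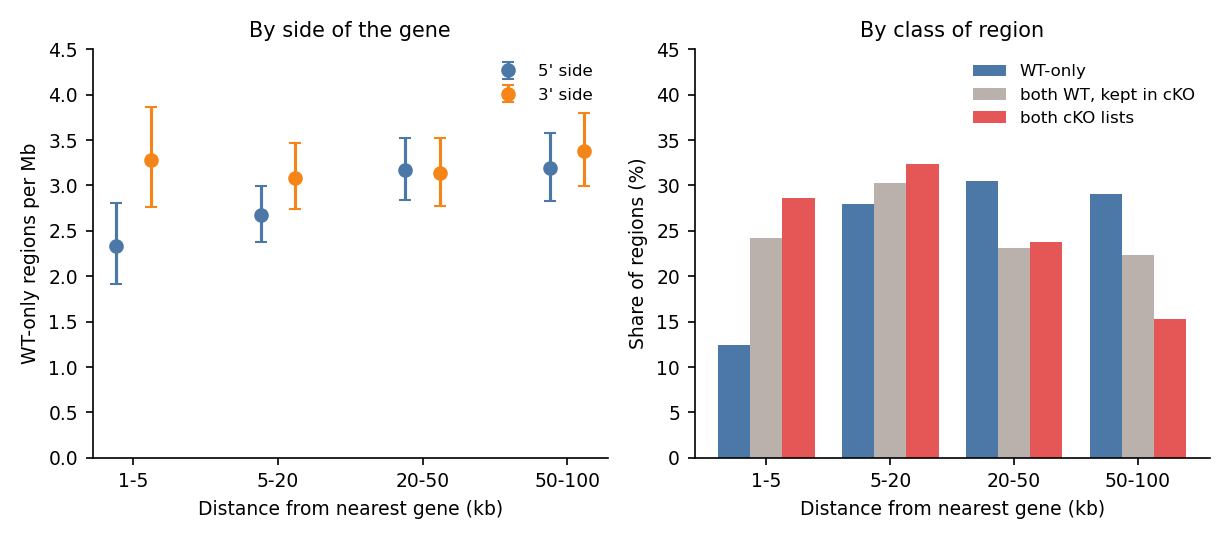
Left, WT-only regions per Mb of available sequence by distance from the nearest gene, for the 5′ and 3′ sides, with 95% exact Poisson intervals; right, the share in percent of WT-only regions, kept regions and regions of both cKO lists that lies in each distance bin. The sides differ most at 1 to 5 kb (2.33 and 3.28 per Mb), and that bin holds 12.5% of the WT-only regions and 28.6% of those of both cKO lists.

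By chromosome the density was 3.01 regions per Mb over all, and on the autosomes it ran from 2.40 on chromosome 7 to 4.15 on chromosome 11. The X chromosome had 42 regions, or 0.643 per Mb, below every autosome, and Y had none. Peaks of single libraries in the same space were also sparse on X, at 1.21 and 1.94 per Mb in the WT libraries and 0.0918 and 0.0612 in the cKO libraries. The sex of the embryos is not given in the labels, and its part in the X density was not tested.

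The 2534 regions were nearest to 1751 of 21887 protein-coding genes (8.0%). Of these genes 1253 had exactly 1 region and 498 had more, among them 21 with at least 5. WT-only regions in the gene body or within 1 kb of its ends were found in 532 of the 1751 (30.4%), against 2371 of all genes (10.8%), and the 532 were 22.4% of those 2371. Kept regions at any location were assigned to 11.9% of the 1751 genes and to 3.50% of all genes. Among the 1751 were Neurog2 with 2 kept regions, and Sox2, Tle3, Hes1, Pou3f3 and Gadd45g with 1 each. A gene named below for its WT-only regions can thus also have peaks that remain in cKO.

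Sox2, the transcription factor that maintains neural stem cells, had the most, 14 regions with 7 on each side. They lay 3242 to 90856 bp from the gene, with folds of 5.31 to 13.3 in WT replicate 1 and 4.23 to 16.4 in WT replicate 2. The strongest was the farthest, at chr3:34558569-34559449, with 13.3 and 16.4. None of the 14 was among the 15 most enriched, so Sox2 stood out by number and not by height. With all RefSeq genes in place of coding genes, when lncRNA bodies no longer count as intergenic, Sox2 had none. Around it 15 further WT-only regions lay beyond 100 kb, and 12 of the 14 were in the body of the lncRNA Sox2ot.

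Tle3, a Groucho-family co-repressor, had 10 regions at 1549 to 93962 bp, 7 on its 5′ side and 3 on its 3′ side. The strongest, at chr9:61293232-61293868, had folds of 17.4 and 33.6, and the other 9 had at most 13.4 in WT replicate 1 and 12.6 in WT replicate 2. Another 10 WT-only regions lay beyond 100 kb from Tle3. Tle3 thus had 1 high region among lower ones, and it had 16 regions without WT replicate 1 and none with all RefSeq genes.

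Slc1a3, the glutamate transporter GLAST of radial glia and astrocytes, had 7 regions, of which 6 were on its 5′ side and 6 in the lncRNA Gm31340. The strongest, at 74899 bp, had folds of 13.5 and 19.5. Id4, a helix-loop-helix inhibitor that restrains differentiation, had 5 regions and another 17 beyond 100 kb. Its strongest had 13.5 and 18.9 at 89365 bp, and A330033J07Rik, a lncRNA whose body overlaps that of Id4, held 3 of the 5. With all RefSeq genes Slc1a3 had 1 region and Id4 had none.

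Cdon, a co-receptor for Sonic hedgehog, had 5 regions, all on its 5′ side. The strongest of these had folds of 19.7 and 23.1 at 20390 bp and 16.9 and 25.2 at 9567 bp. Cxcr4, the chemokine receptor of migrating neurons, also had 5, with 13.3 and 21.2 at 1806 bp on the 3′ side, and no cKO peak of either list was assigned to it. Without WT replicate 1 it had 12. Mitf, Irf2bp2, Nog (a secreted BMP antagonist) and Stag2 (a cohesin subunit, and the only one of these genes on the X chromosome) had 5 each, and Spring1 had 7.

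**Figure D3:**
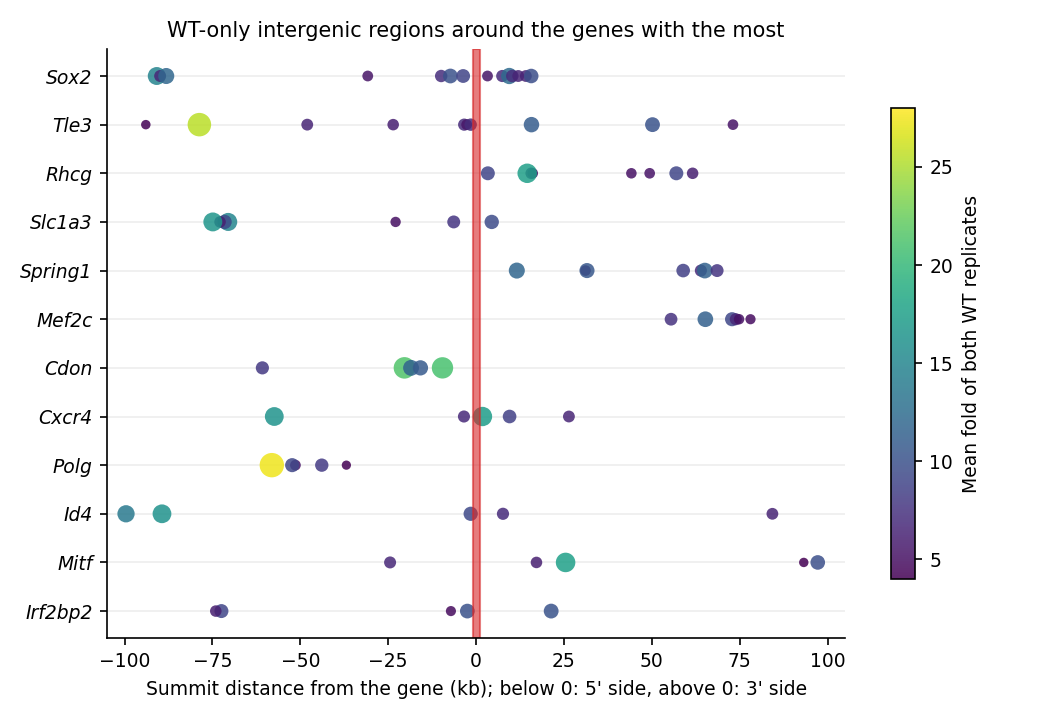
Distance in kb of each region's summit from the gene, 5′ side below 0 and 3′ side above 0, for the 12 of the 15 genes with the most regions whose strand is known; point size and colour follow the mean fold, and the red band is the gene with 1 kb around it, drawn without its length. Sox2 has 7 regions on each side, all 5 of Cdon lie on the 5′ side, and all 7 of Spring1 and all 6 of Mef2c lie on the 3′ side.

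Rhcg (8 regions), Rhbg (7), Mef2c (6) and Polg (5) also ranked among the 15, and 22 of their 26 regions lay in the 3 places of the genome that encode miR-9. This microRNA is abundant in neural progenitors and is known for targeting Hes1 and other regulators of progenitor state. The link was noticed after the values were seen and is given as a description. The same mature sequences are made from Mir9-1, Mir9-2 and Mir9-3, printed in RefSeq's letters with the seed (bases 2 to 8) in capitals:
miR-9-5p: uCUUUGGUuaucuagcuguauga
miR-9-3p: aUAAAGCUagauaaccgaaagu

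The hairpin of Mir9-1 (chr3:88215598-88215686, plus strand) lies between Mef2d and Rhbg, and 10 regions had their summits within 50 kb of it. The strongest had folds of 22.2 and 20.6 at 10129 bp upstream, followed by 17.0 and 19.5 at 6263 bp downstream. The other 8 had at most 10.3 in WT replicate 1 and 15.47 in WT replicate 2. Within that distance WT replicates 1 and 2 had 14 and 16 peaks, cKO replicate 1 had 1 and cKO replicate 2 had none. The rule itself chose WT peaks with no cKO overlap, and WT libraries held 84.1% of all peaks, so nothing is read from the excess.

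The hairpin of Mir9-2 (chr13:83738814-83738885, plus strand) lies on the 3′ side of Mef2c inside the lncRNA C130071C03Rik, and 6 regions were within 50 kb. The nearest, 1045 bp downstream, had folds of 11.8 and 6.58, and the region at the internal start of C130071C03Rik, 6553 bp upstream, had 9.24 and 13.4. The other 4 lay between 4.25 and 7.56 in WT replicate 1 and between 4.66 and 8.33 in WT replicate 2. Here 2 kept regions stood among them, and the libraries had 13, 15, 3 and 1 peaks in the order WT replicates 1 and 2, cKO replicates 1 and 2.

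The hairpin of Mir9-3 (chr7:79505264-79505353, plus strand) lies between Polg and Rhcg, inside the lncRNA Mir9-3hg, and 9 regions were within 50 kb. The strongest, 20720 bp downstream, had folds of 18.7 and 36.1, the highest of the 25 regions at the miR-9 hairpins in the second library. The other 8 had at most 9.76 and 12.7. This place also had 2 kept regions, and the libraries had 15, 20, 7 and 4 peaks in the same order, the most cKO peaks of the 3.

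**Figure D4:**
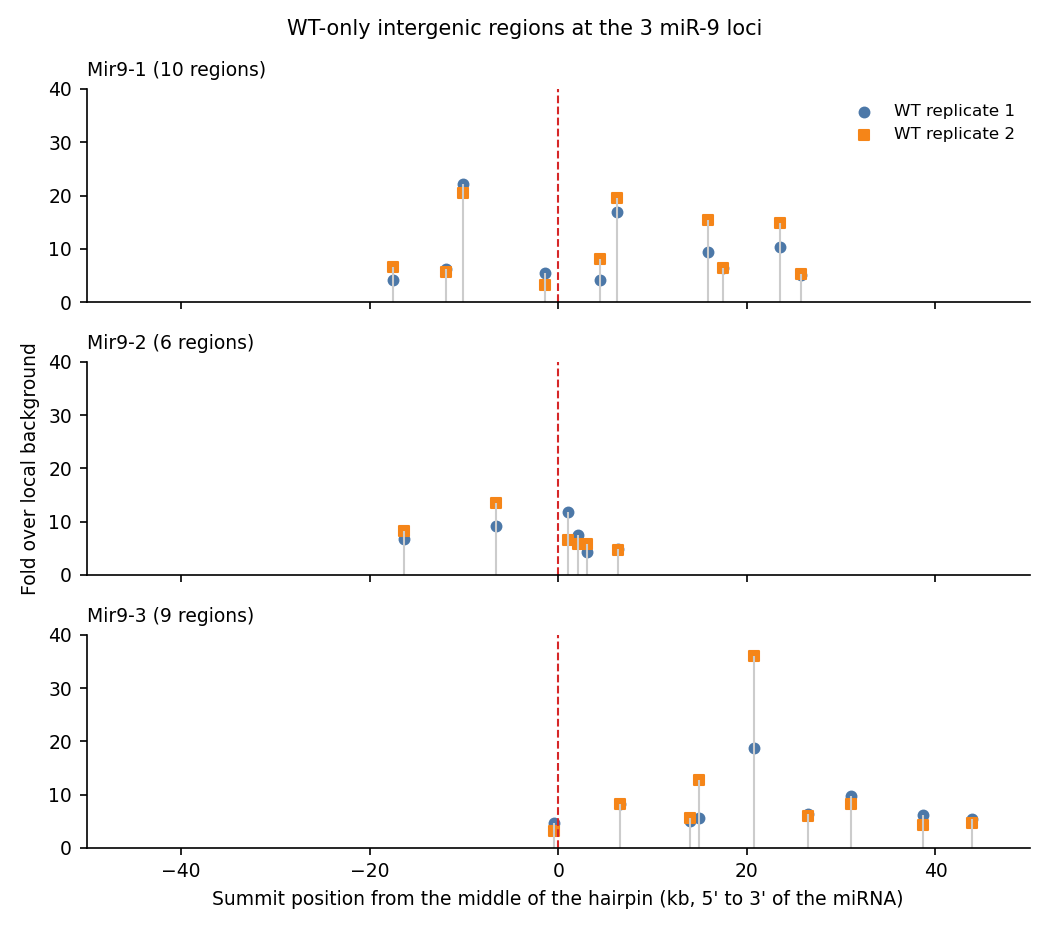
Fold over local background (vertical axis) of each region in WT replicate 1 (circles) and WT replicate 2 (squares) by distance of its summit in kb from the middle of the hairpin (horizontal axis, dashed line at 0, downstream to the right) at Mir9-1, Mir9-2 and Mir9-3. The regions number 10, 6 and 9, and the highest mean folds stand 10.1 kb upstream of Mir9-1, 6.55 kb upstream of Mir9-2 and 20.7 kb downstream of Mir9-3.

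Over all 1005 miRNA hairpins of the table, 28 (2.79%) had a region summit within 10 kb, 88 had one within 50 kb, and 18 had at least 3 within 50 kb. All the Mir9 hairpins were among those 28 and those 18. Hairpins that lie in 1 cluster share regions, so these counts are not independent. Without WT replicate 1 the regions within 50 kb numbered 13 at Mir9-2 and 17 at Mir9-3, and without WT replicate 2 those at Mir9-2 numbered 11. With all RefSeq genes they numbered 5 at Mir9-1 and 1 each at Mir9-2 and Mir9-3.

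Regions stood in runs in part. A neighbour within 10 kb was found for 647 regions (25.5%), beside 28.4% of WT-only regions in gene bodies, 23.8% beyond 100 kb and 7.14% at gene ends. Runs of 5 or more numbered 6: the miR-9 runs between Mef2d and Rhbg (10 regions over 43.2 kb), between Polg and Rhcg (9) and past Mef2c (6), and those at Sox2 (10 over 28.1 kb), between Fgfr3 and Tacc3 (5 over 16.2 kb) and at Meis2 (5 over 6.77 kb). The span at Sox2 held 1 peak of cKO replicate 1 and none of cKO replicate 2, and the spans at Fgfr3 and Meis2 held none of either. Meis2, a homeodomain factor, had low folds there, from 4.42 to 7.32 in WT replicate 1 and 4.54 to 10.5 in WT replicate 2.

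Gene lists were counted against sequence, since genes with much empty space around them collect more regions. For each list the regions per Mb of sequence that lies outside genes at 1 to 100 kb and nearest to the list's genes were set beside the 3.01 over all genes. The lists were chosen with earlier results of these data known, and no test was run on them. Radial glia genes led by number, with 19 of 32 genes and 60 regions, 20.2 per Mb (exact Poisson interval 15.4 to 26.0). Without the 14 regions at Sox2, 46 remained. Sox2 holds only 198 kb of the list's 2.97 Mb, so the density is lower without it. Intermediate progenitor genes had 10 of 16 genes and 18 regions, 21.6 per Mb (12.8 to 34.2).

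In the radial glia list the strongest region was at Ptprz1, a receptor phosphatase that marks outer radial glia in primates, 80722 bp on the 5′ side, with folds of 26.2 and 26.1. Sox9, a factor of progenitors and glia, had 22.4 and 23.4, Fgfr3 had 23.4 and 16.4, and Hopx had 20.004 and 13.7. Pax6, the homeodomain factor of cortical progenitors, had 4 regions within 11.6 kb of each other in the lncRNA Pax6os1, all on its 5′ side, with folds of 4.68 to 5.63 and 4.98 to 10.5. Nr2e1 had 3, Hes1 had 3, Emx2 had 2, and Nes and Lhx2 had 1 each, while Vim, Fabp7 and Prom1 had none.

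Among intermediate progenitor genes, Neurog2, the proneural factor that starts neurogenesis in the cortex, had 3 regions, the strongest with folds of 23.8 and 31.0. It also had 2 kept regions, and each cKO list had 2 peaks assigned to it. Gadd45g had 4, the strongest with 10.3 and 26.4, where WT replicate 2 was far the higher. Btg2, which marks divisions that make neurons, had 3, led by 7.56 and 12.8, and the Notch ligand gene Dll1 had 1 with 10.1 and 6.77. Eomes, the defining factor of these cells, had 1.

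The SOX family had 12 of 19 genes and 34 regions, 16.7 per Mb (11.6 to 23.3), of which 14 were at Sox2. These 14 lie on 198 kb of the list's 2.04 Mb, so the density is lower without Sox2. Sox13 had 1 region with folds of 23.2 and 23.3 at 68097 bp, and Sox1 had 3, led by 23.5 and 16.7. Sox21 had 3, led by 15.1 and 17.6. Sox8, a factor of the oligodendrocyte lineage, had 1 with 14.4 and 11.3, and Sox7, Sox10, Sox12, Sox15, Sox17, Sox18 and Sox30 had none.

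Upper-layer neuron genes had 9 of 15 genes and 30 regions, 14.3 per Mb (9.62 to 20.4), and 16 of the 30 were at Tle3 and Mef2c. The 6 at Mef2c are the same regions as those at the Mir9-2 hairpin. Pou3f3, a POU factor of upper-layer neurons, had 3, led by 23.5 and 12.7. Deep-layer genes had 7 of 15 and 13 regions, 6.16 per Mb (3.28 to 10.5), led by Nfib with 14.6 and 15.3 at its strongest. The intervals of the upper-layer and deep-layer lists overlap.

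Signalling lists lay between 8.38 and 10.4 per Mb. The Notch list had 7 of 25 genes and 11 regions (10.4 per Mb, 5.18 to 18.6), with the effector Rbpj at 11.2 and 16.5, the target Hes1 at 8.14 and 14.1, the ligand Jag1 at 7.56 and 12.6 and the target Hes5 at 5.91 and 11.3. In each of these regions the second library was the higher, and over all 2534 regions WT replicate 1 was the higher in only 40.6%. They are only the strongest region of each named gene, and another Hes1 region reached 12.1 in WT replicate 1. No trait of the list is read from them. The TGF-beta and BMP list had 10 of 32 and 21 regions (8.83 per Mb, 5.47 to 13.5), of which 10 were at Id4 and Nog. The Wnt list had 11 of 30 and 17 regions (8.38 per Mb, 4.88 to 13.4), with the receptor Fzd9 at 17.8 and 18.2, the transcription factor Tcf7l2 at 17.4 and 18.2 and beta-catenin, Ctnnb1, at 9.89 and 11.6.

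Genes of migration and guidance had 17 of 33 genes and 31 regions, 7.22 per Mb (4.91 to 10.3), led by Cxcr4 and by Nrp2 with 14.4 and 13.2. Interneuron and ventral telencephalon genes, which mark cells outside the Emx1 lineage, had 11 of 23 and 18 regions, 7.72 per Mb (4.58 to 12.2). Prox1, a homeodomain factor, had 1 of these regions, with folds of 13.1 and 16.5, and the strongest at Sp8, a zinc-finger factor, had 12.5 and 13.2. Astrocyte and oligodendrocyte genes had 7 of 20 and 12 regions (8.74 per Mb), POU and LIM homeobox genes 5 of 23 and 11 (5.37), and forkhead genes 5 of 28 and 9 (3.86), with Foxd3 at 18.3 and 19.8.

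Lists for other cell types were mixed. Cajal-Retzius genes had 4 of 10 genes and 9 regions (9.52 per Mb, 4.35 to 18.1), of which 5 were at Cxcr4. Microglia genes had 1 of 15 (Sall1, 2 regions), choroid plexus and cortical hem genes 3 of 16 (Kl, Otx2 and Msx2, 4 regions), endothelial and mural genes 1 of 17 (Emcn), liver genes 1 of 19 and skeletal muscle genes none of 13. Endothelial, liver and muscle genes were the 3 lists below the density of all genes.

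Ubiquitous genes, a list with no tie to the cortex, had 4 of 20 genes and 7 regions, 16.2 per Mb (6.51 to 33.3), on 0.432 Mb of sequence. Among these were Psmb2, a proteasome subunit, with folds of 7.32 and 14.1, and Eef1a1, a translation elongation factor, with 8.89 and 4.66 at its stronger region. Their density was below those of the radial glia and intermediate progenitor lists, with intervals that overlap, and above that of all genes. The radial glia density includes Sox2 and is lower without it, so no order of these lists is read from the densities. In all, 17 of the 20 lists were above 3.01 per Mb. The 3.01 counts 65.3 Mb of X, with few regions, and 40.7 Mb of Y, with none, so it is lower than over the autosomes alone. A list just above it is not set apart from it, such as choroid plexus and cortical hem genes at 3.26 per Mb (0.888 to 8.35). The densities depend on the library and the gene table: without WT replicate 1 they were 38.0 for radial glia and 37.1 for upper-layer genes, with 8.10 over all genes, and with all RefSeq genes 7.79 for the SOX family, 7.40 for upper-layer and 2.22 for deep-layer genes, with 2.60 over all genes.

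**Figure D5:**
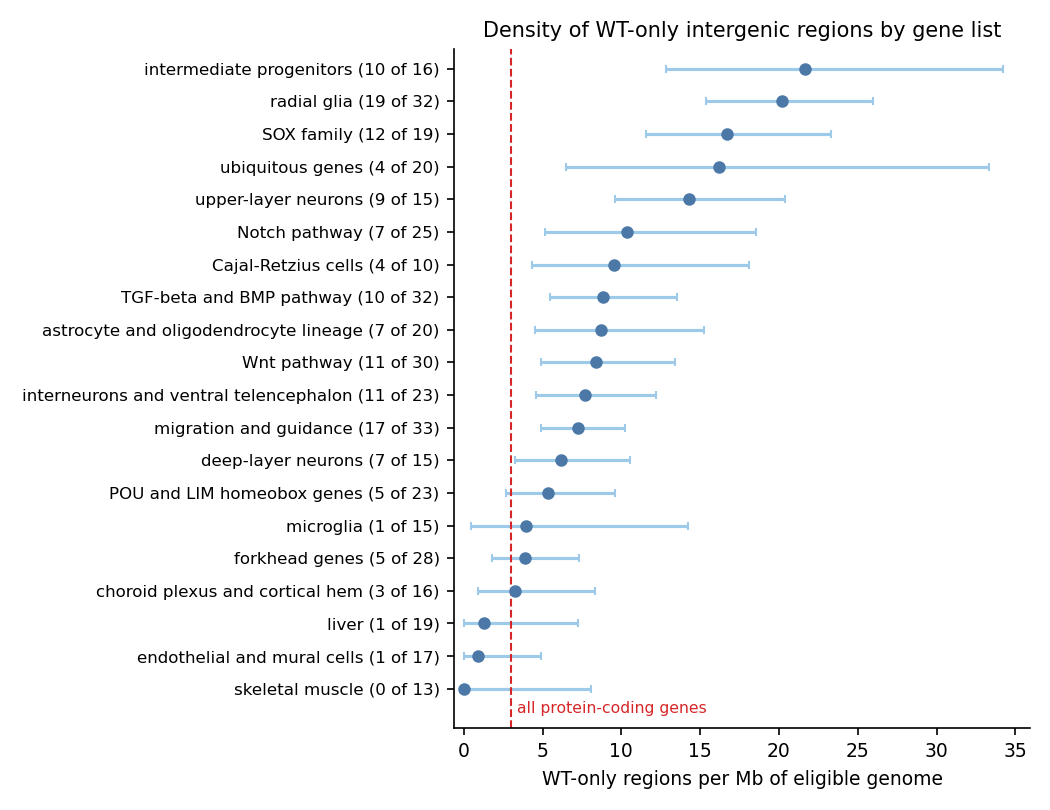
WT-only regions per Mb of eligible sequence (outside protein-coding genes, 1 to 100 kb away and nearest to a gene of the list) for each of the 20 lists, with 95% exact Poisson intervals; the dashed line is the 3.01 per Mb of all genes. Intermediate progenitor (21.6) and radial glia (20.2) genes stand highest, ubiquitous genes (16.2) lie close to the SOX family (16.7), and skeletal muscle genes stand at 0. The radial glia and SOX lists both include the 14 regions at Sox2.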

How the data were processed

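PRDM16 ChIP-seq peak lists of 4 libraries, 2 WT and 2 cKO, were used. The 4 input samples had no list here and were not analysed. Per the submitters' processing notes the tools were MACS2 2.1.1, Bowtie2 2.2.8, cutadapt and FastQC, and the build was mm10; settings are not given in the sources used here. The authors deposited 1 list per library, so peaks were called per library. In the deposited lists each peak's enrichment is a fold over local background, a ratio. Its significance is deposited on a −log10 scale, once for the p-value and once for the q-value. The authors' score column is a rescaled significance and was not used.

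The 19 autosomes, X and Y were used, and peaks of a list that overlapped were merged. Regions of both lists of a genotype were unions of peaks that shared at least 1 bp, with the summit at the mean of both replicates. Summit reads and backgrounds were solved from the fold and the Poisson p-value within 0.001 on the −log10 scale. This succeeded for over 99.9% of the peaks of each library, and 2 regions have no value in WT replicate 2. Gene, lncRNA and hairpin positions and sequences came from RefSeq tables of GRCm38.p6, the mm10 assembly, with 21887 protein-coding genes, of which 17492 had a strand. Coordinates count from 1. Runs join summits within 10 kb of each other.

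Densities carry exact Poisson and shares Wilson 95% intervals. The 20 gene lists have 421 entries and 378 distinct symbols, all found in the gene table. The regions and lists were chosen with earlier results of these data known. Genes were named by rule: the nearest genes of the 15 regions with the highest mean fold, the 15 genes with the most regions, up to 4 genes per list by their strongest region, the genes at each bound and at runs of 5 or more. Some genes that the rule names are not reported here. Other genes, and the microRNA and lncRNA results, were chosen after values were seen. Motifs at all summits were planned but not run, since no genome sequence was used here, and lncRNA start windows were searched instead. Scripts, tested on simulated regions, ran in Python 3.11.15 with numpy 2.4.6, pandas 2.3.3 and scipy 1.17.1.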

Additional observations from a re-analysis of the deposited data

How the results depend on the processing

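The number of regions, their genes, positions, folds and list densities were recomputed with an overlap of at least 50% of the shorter peak, with q-values at or below 0.01, without regions that had a cKO peak within 1 kb, with distance from the nearest edge, with all RefSeq genes in place of coding genes, and without each library. Of 77 recomputed summaries 66 were counted as within the limits used. So were 251 of 290 recomputed densities of single lists and counts at single genes or hairpins. The 77 include the genotype difference in the share of peaks between genes, which passed at 10.1 points with all RefSeq genes against 3.63. Its value with a replicate block equals the main one by construction. Skeletal muscle genes passed at 2.19 regions per Mb without WT replicate 1 against 0. The limits thus let large changes pass, so these counts do not measure stability. With all RefSeq genes, 2954 regions met the rule, the nearest coding genes numbered 712, the 5′ share was 44.6%, the median distance 15272 bp, the share with a neighbour within 10 kb 21.4%, and 14 lists were above the density of all genes in place of 17. Leaving out 1 library at a time gave 2578 to 6816 regions, nearest to 1770 to 3509 genes. The highest of each came without WT replicate 1, the library with the fewer WT peaks, and 3424 regions were counted without WT replicate 2. The 5′ share then ran from 51.0% to 51.9%, the median distance from 25626 to 27396 bp, the share with a neighbour from 25.7% to 44.2% and the median mean fold from 5.41 to 7.58, and 17 lists stayed above all genes each time. In all 10 alternatives 13 lists were above the density of all genes, among them radial glia, intermediate progenitors, the SOX family and the ubiquitous genes, and endothelial and muscle genes were above it in none.

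The difference between genotypes in the share of peaks lying between genes, 3.63 percentage points, was 3.41 to 3.84 points when 1 library was left out, 3.49 with q-values at or below 0.01 and 10.1 with all RefSeq genes. Replicate numbers are shared between the genotypes but the labels give no pairing. With the replicate number as a block the difference is by construction the same 3.63 points. The exact permutation p was then 0.5, the smallest that 2 pairs allow. At medians of 13 and 27 reads per summit, counting error limits each single fold.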

Other observations

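Other microRNA hairpins also lay beside regions, named here after their values were seen. Mir7-2 (chr7:78888277-78888373, plus strand), near Aen, had 1 region with its summit 693 bp upstream of the hairpin and folds of 20.6 and 14.1 in WT replicates 1 and 2, with 1 cKO peak within 50 kb. Its mature 5p form, with the seed in capitals, is this RefSeq sequence:
miR-7a-5p: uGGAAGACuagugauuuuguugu

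Mir181a-1 (chr1:137966455-137966541, plus strand) lay under a region, with folds of 6.55 and 7.39 and no cKO peak within 50 kb. Mir670 and Mir129-2, near Ttc17 on chromosome 2, shared 4 regions within 50 kb, with folds up to 6.95 in the first WT library, up to 10.1 in the second and no cKO peak. These folds are lower than those of the strongest regions at the miR-9 hairpins.

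Some strong regions lay in the flank of a developmental gene that was not the nearest one. The region by LOC115486419 had Eomes on its other side at 231016 bp, the region by Chd9 had Tox3, and the region by Slc39a11 had Sox9 at 400692 bp. All of these ranked between 18 and 20 by mean fold, and the list counts credit none of them to the farther gene.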
